A study of Papio anubis with 8 samples.

Results

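AMP-activated protein kinase (AMPK) and the mTOR kinase complexes were described here through the transcripts of their subunits in fetal olive baboon (Papio anubis) hippocampus. The members were chosen by gene symbol: 6 AMPK subunit genes, the upstream kinase gene STK11, and MTOR, RPTOR and RICTOR. Of these 10 genes, 8 had a row among the 37053 genes of the deposited table, and all 8 passed the filter on low counts. PRKAB2 and STK11 are not analysed here. The study measured total RNA from the hippocampus at 0.9 of gestation, where the mothers differed in adiposity and in leptin, a hormone of fat tissue. The 8 libraries, AMB3 to AMB10, are not assigned to a maternal group by their labels, which also give no sex. No groups were therefore compared, and the values describe how the libraries differed from one another. The title of AMB3 carries a suffix of a different form from the other titles, and the titles do not give its meaning. Separate fetuses are not stated as the source of the libraries, so every p-value below takes libraries, and not animals, as its units.

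AMPK is a heterotrimer of a catalytic alpha, a scaffolding beta and a nucleotide-binding gamma subunit. It is activated when AMP and ADP accumulate, through phosphorylation of the alpha subunit by LKB1 (the product of STK11). The calcium-dependent kinase CAMKK2 also phosphorylates that subunit. Active AMPK favours catabolism over growth. mTOR works in the opposite sense in 2 complexes: with RPTOR it forms mTORC1, which promotes protein synthesis and restrains autophagy when nutrients and growth factors are present, and with RICTOR it forms mTORC2, which phosphorylates AKT, SGK and protein kinase C. AMPK restrains mTORC1 by phosphorylating RPTOR and TSC2. In neurons both pathways bear on growth, synaptic protein synthesis and the response to energy shortage.

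The libraries held 40404878 (AMB9) to 71648654 (AMB10) counts. Levels are in CPM (counts per 1000000 counts of the library), adjusted between libraries by the trimmed mean of M-values. Each member rested on at least 656 counts in every library, and 95% Poisson intervals on those counts cover counting error only. The labelled tissue was checked against marker genes: the 6 excitatory neuron markers were detected in every library and summed to 2899 to 4506 CPM, and the 6 dentate granule cell markers to 93.5 to 336 CPM. Markers of other cells also differed between libraries. The summed level of 8 myelin genes lay between 758 and 4844 CPM, that of 5 genes of meninges and fibroblasts between 84.7 and 462 CPM, and that of 5 choroid plexus genes between 6.49 and 29.2 CPM. CPM is not corrected for transcript length, so levels are compared between libraries and not between genes.

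The members differed in how far they varied over the libraries. PRKAA2, PRKAG2 and RICTOR had a log2 range (the highest minus the lowest library, in log2 CPM) of 1.30, 1.25 and 1.15. PRKAA1 and PRKAB1 had one of 0.82 and 0.53. MTOR, RPTOR and PRKAG1 had the smallest ranges, with 0.41, 0.28 and 0.22. A range of at least 1 was thus found for 3 of the 8 members, against 36.1% of the 16874 genes that passed the filter, and the median range was 0.67 over the members and 0.77 over all these genes. The count is close to that background, which was not matched to the members for count level. PRKAG1 had a wider range than 1.13% of the tested genes and RPTOR than 3.76%, whereas PRKAA2 had a wider range than 76.4%.

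**Figure D1:**
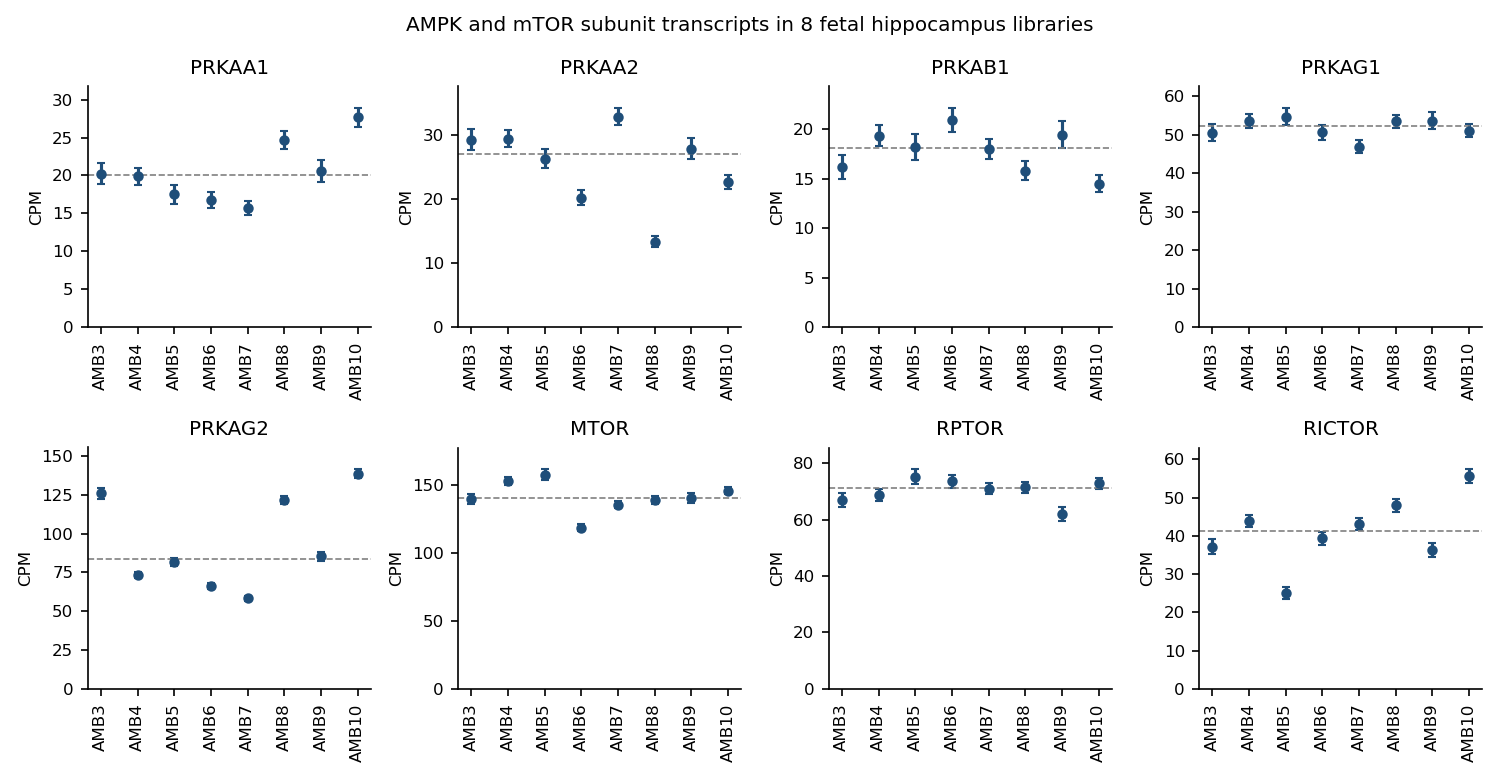
CPM of each member (y axis, from 0) in each of the 8 libraries (x axis); points are single libraries, bars are 95% Poisson intervals and the dashed line is the median. PRKAA2 was lowest in AMB8, PRKAG2 was high in AMB3, AMB8 and AMB10, and RICTOR was lowest in AMB5, while PRKAG1 stayed between 46.9 and 54.7 CPM.

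Among the catalytic subunits, PRKAA2 encodes alpha-2 (chromosome 1, 55074414 to 55141428, plus strand). It stood at 29.2 CPM in AMB3, 29.4 in AMB4, 26.3 in AMB5, 20.2 in AMB6, 32.8 in AMB7, 13.3 in AMB8, 27.8 in AMB9 and 22.6 in AMB10. AMB8 was the lowest library, with an interval of 12.4 to 14.2 CPM, and AMB7 had the highest level, 2.47-fold that of AMB8. The log2 range of 1.30 was 0.70 without AMB8. Ordered by level, AMB8, AMB6 and AMB10 each differed from the next library beyond their intervals, and so did AMB4 from AMB7. The intervals of AMB5, AMB9, AMB3 and AMB4 overlapped from one to the next.

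PRKAA1 encodes the other catalytic isoform, alpha-1 (chromosome 5, 39566783 to 39607989, minus strand). Its level was 20.3 CPM in AMB3, 19.9 in AMB4, 17.5 in AMB5, 16.7 in AMB6, 15.7 in AMB7, 24.6 in AMB8, 20.6 in AMB9 and 27.7 in AMB10. The highest library was AMB10, then AMB8, each apart from the next lower one beyond counting error. The lowest was AMB7, in which PRKAA2 was highest, and AMB8, lowest for PRKAA2, had the next to highest PRKAA1 level.

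The count ratio of PRKAA2 to PRKAA1 within a library does not depend on the scaling between libraries. It was 0.540 in AMB8 and 0.815 in AMB10, between 1.21 and 1.499 in AMB3, AMB4, AMB5, AMB6 and AMB9, and 2.09 in AMB7. The ratio thus spanned 3.87-fold, the widest span of the 5 subunit pairs examined. On the log2 scale this span was 1.95, or 1.36 without AMB8. Over the 8 libraries the log2 CPM of the 2 genes gave Pearson's r = -0.501 (exact permutation p = 0.209, adjusted p = 0.882) and Spearman's rho = -0.452 (exact permutation p = 0.267, adjusted p = 0.935), so that an inverse relation was not established. Without the 2 libraries farthest from the median of PRKAA2, r was -0.828.

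PRKAB1 encodes the beta-1 subunit, the scaffold that joins alpha to gamma and can bind glycogen (chromosome 9, 113995181 to 114010537, plus strand). It was at 16.1 CPM in AMB3, 19.4 in AMB4, 18.2 in AMB5, 20.9 in AMB6, 18.02 in AMB7, 15.8 in AMB8, 19.5 in AMB9 and 14.5 in AMB10. AMB10, AMB8 and AMB3 were the lowest libraries. No library differed from its neighbour in this order beyond the counting intervals, although the intervals of AMB10 (13.6 to 15.4 CPM) and AMB6 (19.7 to 22.2 CPM) lay apart.

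The gamma subunits bind the adenine nucleotides that set AMPK activity. PRKAG1, gamma-1 (chromosome 9, 43825002 to 43842766, minus strand), was at 50.5 CPM in AMB3, 53.6 in AMB4, 54.7 in AMB5, 50.6 in AMB6, 46.9 in AMB7, 53.5 in AMB8, 53.6 in AMB9 and 51.1 in AMB10. Its range of 0.22 was 0.11 without AMB7, the lowest library. No neighbours in this order differed beyond counting error.

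PRKAG2 encodes gamma-2 (chromosome 4, 7380316 to 7697643, plus strand). It stood at 126 CPM in AMB3, 73.3 in AMB4, 81.6 in AMB5, 66.1 in AMB6, 58.2 in AMB7, 122 in AMB8, 85.5 in AMB9 and 139 in AMB10. The libraries AMB10, AMB3 and AMB8 were well above the others, with no value between 85.5 and 122 CPM. Leaving out any single library kept the log2 range between 1.06 and 1.25. The ratio of PRKAG2 to PRKAG1 counts was 2.72 in AMB10, 2.496 in AMB3 and 2.28 in AMB8, with 1.24 to 1.59 in the other libraries, a 2.19-fold span. The 2 gamma genes gave r = 0.273 (exact permutation p = 0.529, adjusted p = 0.882) and rho = 0.143 (exact permutation p = 0.752, adjusted p = 0.935), and r = 0.683 without the 2 libraries farthest from the median of PRKAG2.

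AMB3, AMB8 and AMB10 are also the libraries on which the deposited log2 values are centred, as their median was 0 for all 15556 genes whose count exceeded 20 throughout. Over all tested genes these 3 libraries were the highest in 9.71%, as for PRKAG2, and the lowest in 9.87%, as for PRKAB1. The order is therefore shared with many other genes, and the labels do not say what these libraries have in common. The dentate granule cell score (the median over its tested markers of log2 CPM minus each gene's median) reached 1.53 in both AMB8 and AMB10. It was 0.35 in AMB3 and lay between -0.52 and -0.11 in the other libraries. Because that score fell into separate clusters, no correlation with it is given, and its part in the levels of PRKAG2 and PRKAA1 was not tested. In bulk RNA, fewer cells of a type and less RNA per cell cannot be told apart.

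PRKAG3, the remaining AMPK subunit gene of the genome known in other mammals for its expression in skeletal muscle, had 2 counts in AMB4, 2 in AMB6 and none elsewhere. The 95% Poisson interval of a count of 0 reached 0.0928 CPM in AMB9, the shallowest library.

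The shared kinase MTOR (chromosome 1, 9972157 to 10122449, minus strand) was at 139 CPM in AMB3, 153 in AMB4, 157 in AMB5, 118 in AMB6, 135 in AMB7, 139 in AMB8, 140.3 in AMB9 and 146 in AMB10. AMB6 was the lowest library, apart from the next one beyond counting error, and the log2 range of 0.41 was 0.21 without it. AMB4 and AMB5 had the highest levels.

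RPTOR, the scaffold that recruits substrates to mTORC1 (chromosome 17, 72154247 to 72562814, plus strand), was at 67.0 CPM in AMB3, 68.8 in AMB4, 75.2 in AMB5, 73.6 in AMB6, 71.0 in AMB7, 71.5 in AMB8, 61.8 in AMB9 and 73.0 in AMB10. Only AMB9, the lowest, differed from its neighbour in this order beyond counting error. Without AMB9 the log2 range of 0.28 was 0.17. The count ratio of RPTOR to MTOR lay between 0.441 and 0.526 in all libraries but AMB6, where it was 0.621. Its log2 span of 0.49 was 0.25 without AMB6.

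RICTOR, which defines mTORC2 (chromosome 5, 37759956 to 37888898, minus strand), varied more. Its level was 37.2 CPM in AMB3, 43.9 in AMB4, 25.0 in AMB5, 39.4 in AMB6, 43.0 in AMB7, 48.0 in AMB8, 36.3 in AMB9 and 55.6 in AMB10. AMB5 was the lowest library, apart from the next one beyond counting error, and AMB10 was the highest, a 2.22-fold difference. The log2 range of 1.15 was 0.62 without AMB5 and 0.94 without AMB10. In AMB5 the levels of MTOR and RPTOR were the highest of all libraries, but neither differed from the next library beyond counting error. With library totals alone, neither was highest in AMB5. The ratio of RICTOR to RPTOR counts was accordingly 0.333 in AMB5, against 0.535 to 0.671 in 6 other libraries and 0.762 in AMB10. RICTOR to MTOR was 0.159 in AMB5 and between 0.259 and 0.382 elsewhere. Without AMB5 the log2 span of RICTOR to RPTOR was 0.51, against 1.20 with it, and that of RICTOR to MTOR was 0.56, against 1.26.

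No relation among the 3 mTOR genes was established over the 8 libraries. Exact permutation tests gave r = -0.0178 for RPTOR and MTOR (p = 0.962, adjusted p = 0.962), r = -0.250 for RICTOR and MTOR (p = 0.529, adjusted p = 0.882) and r = -0.0217 for RICTOR and RPTOR (p = 0.958, adjusted p = 0.962). The corresponding rho was 0.0476 (exact permutation p = 0.935), -0.167 (p = 0.703) and 0.0714 (p = 0.882), each with an adjusted p of 0.935. Without the 2 libraries farthest from the median of the first gene, r was -0.0936, 0.222 and 0.616. None of the 5 pairs tested passed at an adjusted or an unadjusted p of 0.05.

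**Figure D2:**
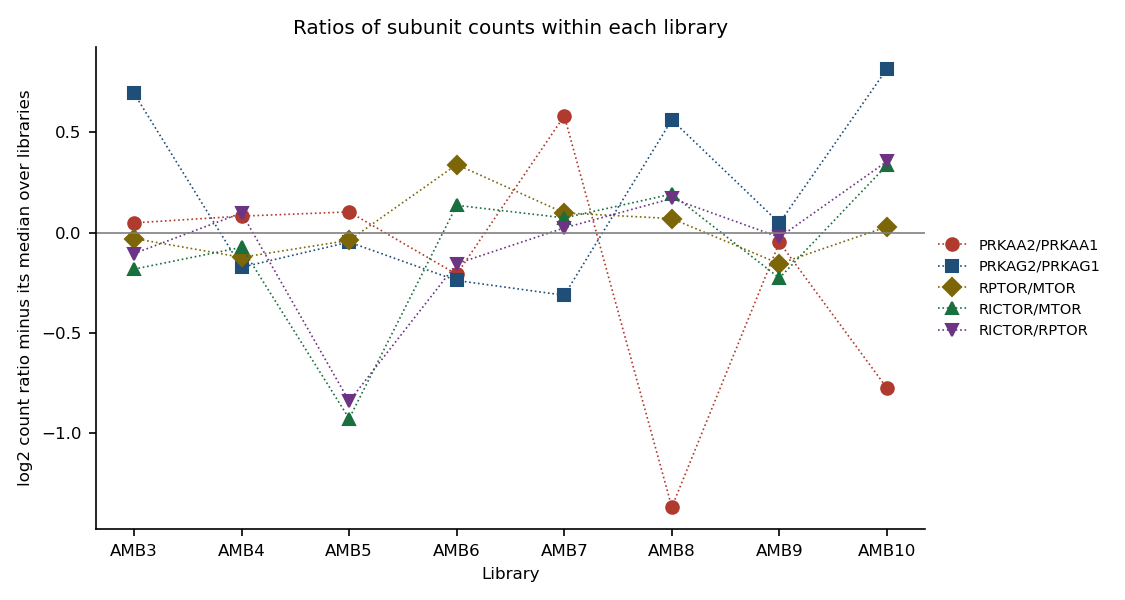
Log2 ratio of the counts of 2 subunit genes within each library, minus the median of that ratio over the libraries (y axis), by library (x axis); dotted lines only join the points of a pair. The ratio of PRKAA2 to PRKAA1 was lowest in AMB8 and AMB10, that of PRKAG2 to PRKAG1 was highest in AMB10, AMB3 and AMB8, and both RICTOR ratios were lowest in AMB5.

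Each member was set against the scores of 8 cell type marker lists over the 8 libraries, 64 relations in all, of which the 8 with the dentate score are not given. No relation passed at an adjusted p of 0.05 by r or by rho, and the smallest adjusted p of r was 0.151. At an unadjusted p under 0.05 there were 5 relations by r and 5 by rho. The smallest p by r was that of PRKAA2 with the genes of meninges and fibroblasts (r = 0.831, exact permutation p = 0.00409, adjusted p = 0.151; rho = 0.905, p = 0.00456, adjusted p = 0.128), and r was 0.689 without the 2 libraries farthest from the median of PRKAA2. That score was lowest in AMB8, at -1.48, where PRKAA2 was also lowest, and highest in AMB4, at 1.05. Its part in the PRKAA2 level was not tested.

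Next came RICTOR with the myelin genes (r = 0.829, exact permutation p = 0.00541, adjusted p = 0.151; rho = 0.929, p = 0.00223, adjusted p = 0.125), and r was 0.734 without the 2 farthest libraries. The myelin score was -1.27 in AMB5 and 1.92 in AMB10, the libraries of lowest and highest RICTOR, but it was -1.24 in AMB3, where RICTOR was at 37.2 CPM. Against the astrocyte genes, PRKAA1 and PRKAG2 gave r = 0.824 (exact permutation p = 0.0125, adjusted p = 0.201) and r = 0.818 (p = 0.0144, adjusted p = 0.201). Their rho was 0.714 (exact permutation p = 0.0576, adjusted p = 0.538) and 0.786 (p = 0.0279, adjusted p = 0.313), and r was 0.501 and 0.601 without the 2 farthest libraries. The astrocyte score ran from -0.47 in AMB7 to 0.62 in AMB10, and the 6 markers summed to 2805 to 6148 CPM. The fifth relation by r, of PRKAA2 with the interneuron genes (r = 0.805, exact permutation p = 0.0471, adjusted p = 0.509), had a rho of 0.0952 (p = 0.840, adjusted p = 0.969) and an r of 0.390 without the 2 farthest libraries. Of the relations past an unadjusted 0.05 by rho, those of RICTOR and PRKAB1 with the interneuron genes had rho = -0.810 and rho = 0.810 (each with exact permutation p = 0.0218 and adjusted p = 0.305), and r = -0.620 (p = 0.140, adjusted p = 0.560) and r = 0.581 (p = 0.118, adjusted p = 0.509). Without the 2 farthest libraries, r was -0.727 and 0.645. The interneuron score was -0.91 in AMB8 and no lower than -0.29 elsewhere. The part of myelin, astrocytes and interneurons in these levels was not tested.

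**Figure D3:**
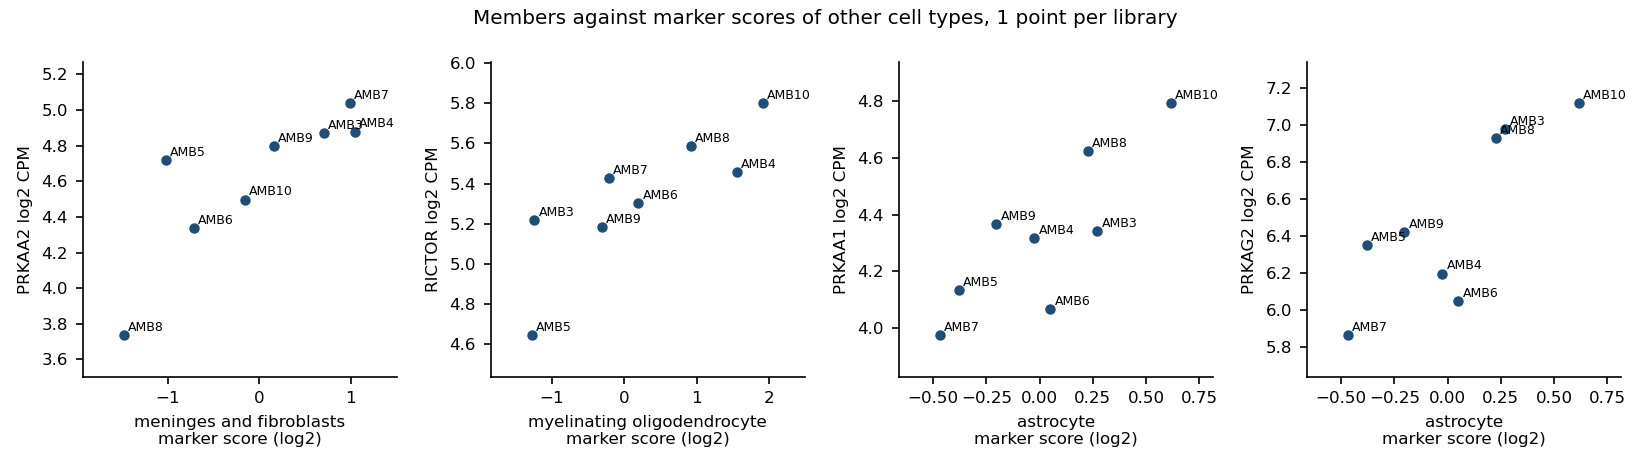
Log2 CPM of a member (y axis) against the score of a marker list (x axis, log2), with 1 point per library, for the 4 relations with the smallest unadjusted p of r. AMB8 lies at the low end for PRKAA2, AMB5 at the low end for RICTOR, and AMB10 and AMB7 at the ends for PRKAA1 and PRKAG2; no adjusted p of r was below 0.151.

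For the 3 members of largest range, the genes of most similar pattern were taken by Pearson's r of log2 CPM over the 8 libraries among 9140 genes, as a description without a test. For PRKAG2 they were IQCG (r = 0.992), PPP2R3C, a regulatory subunit of protein phosphatase 2A (0.991), SNAP25, a SNARE protein of the presynaptic terminal (0.986), DGKG, a diacylglycerol kinase (0.985), and PCOLCE2 (0.981). All 5 had their highest levels in AMB3, AMB8 and AMB10 and their lowest in AMB7. SNAP25 was at 1240 CPM (AMB3), 1228 CPM (AMB8) and 1292 CPM (AMB10), and the remaining libraries had 852 to 1036 CPM. DGKG had 103, 114 and 126 CPM there, and 19.2 to 38.9 in the remaining libraries. An r of at least 0.95 with PRKAG2 was found for 70 genes, or 0.766%, and an equally strong negative r for 69.

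PRKAA2 had fewer genes of like pattern, with 6 at an r of at least 0.95 and 0 at an equally strong negative r. The nearest were TMED8 (r = 0.987), the tetraspan gene LHFPL6 (0.974), ARL6IP5, a protein of the endoplasmic reticulum (0.958), RBM20, a splicing factor (0.956), and SDR42E1 (0.954). Each was lowest in AMB8. Without that library the log2 range of SDR42E1 fell from 1.38 to 0.43, and that of TMED8 from 0.52 to 0.29. LHFPL6 had 30.9 CPM in AMB8 and 68.5 CPM in AMB7, the same extremes as PRKAA2. Among the genes nearest to RICTOR were HBP1, a transcriptional repressor (r = 0.977), ARHGAP12 (0.975), ZBTB1 (0.968) and APOBEC2 (0.960). These genes were lowest in AMB5, and ARHGAP12 was at 32.5 CPM there and 78.8 in AMB10. Without AMB5 the log2 range of HBP1 fell from 0.82 to 0.38, and that of ARHGAP12 from 1.27 to 0.79. How far the r values of the genes nearest to PRKAA2 and RICTOR rest on AMB8 and AMB5 was not tested. For RICTOR, 6 genes had an r of at least 0.95 and 17 an equally strong negative one.

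Other genes of the 2 pathways were taken from 7 lists. Of 96 distinct genes, 91 had a row and passed the filter. Of these, 19 (20.9%) had a log2 range of at least 1, against 36.1% of all tested genes. The median range of the 91 was 0.56, against 0.77 over all tested genes. That background was not matched for count level, and its share was 54.2% with no filter on low counts. Among the partners of LKB1 and the other kinases that phosphorylate AMPK, 1 of 7 had a range of at least 1. This was CAMKK2, the calcium-dependent AMPK kinase, with 186 CPM in AMB3, 249.8 in AMB10, 276 in AMB8 and 369.9 to 465.6 in the remaining libraries (a range of 1.32, or 0.90 without AMB3). CAB39, which stabilizes the LKB1 complex, lay between 147 and 181 CPM, and its pseudokinase partner STRADA between 47.6 and 74.6 CPM. STRADA was highest in AMB8 and AMB10.

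Of 12 AMPK-related kinases that LKB1 also activates, 3 had a range of at least 1. NUAK1 ranged from 53.7 CPM in AMB8 to 165 CPM in AMB5. SIK1, a salt-inducible kinase, was at 20.5 CPM in AMB3 and between 7.65 and 13.35 elsewhere (a range of 1.42, or 0.80 without AMB3). The synaptic kinase BRSK1 lay between 282 and 411 CPM and MARK4, which phosphorylates microtubule-associated proteins, between 138 and 195.97 CPM. Among 16 AMPK substrates 5 had a range of at least 1, or 3 without AMB3 and 3 without AMB5. The acetyl-CoA carboxylase ACACB, which controls fatty acid oxidation, had 19.5 CPM in AMB8, 19.3 in AMB10 and no more than 15.0 elsewhere, and the glycolytic activator PFKFB3 had 108 CPM in AMB8, 97.6 in AMB10 and 45.0 to 73.1 in the remaining libraries. ACACA, the carboxylase of lipid synthesis, lay between 141 and 195 CPM.

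Of 9 other mTOR complex subunits and assembly factors, 3 had a range of at least 1. DEPTOR, an inhibitory subunit of both complexes, was at 4.14 CPM in AMB5 and between 5.73 and 9.75 elsewhere (a range of 1.23, or 0.76 without AMB5). TELO2, an assembly factor, ranged from 10.1 CPM in AMB9 to 25.2 in AMB6 (1.31, or 0.83 without AMB9). The mTORC2 subunit MAPKAP1 was the most even of these genes, at 80.1 to 91.0 CPM. AKT1S1, an inhibitor of mTORC1, lay between 29.7 and 45.3 CPM and was lowest in AMB9, as RPTOR was (a range of 0.61, or 0.31 without AMB9).

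Upstream of mTORC1, 1 of 5 genes of the TSC complex and RHEB had a range of at least 1. RHEB, the GTPase that activates mTORC1, lay between 105 and 138 CPM, with a range of 0.39 that was 0.11 without AMB7, its lowest library. TSC2, the GTPase-activating protein for RHEB, lay between 110.2 and 152 CPM (0.47, or 0.30 without AMB3) and TBC1D7, another subunit, between 22.9 and 36.5 CPM. RHEBL1, a relative of RHEB, was at 4.60 CPM in AMB5 and 1.28 in AMB10. Of 27 tested genes of Rag GTPases and lysosomal amino acid sensing, 1 had a range of at least 1. It was SESN3, a sestrin, which ranged from 67.3 CPM in AMB8 to 157 CPM in AMB6 (1.22, or 0.73 without AMB8). The Rag GTPases RRAGA and RRAGD lay between 157 and 194 CPM and between 79.2 and 137 CPM. RRAGA had a range of 0.31, or 0.20 without AMB5.

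Among 15 tested substrates and translation targets of mTOR, 5 had a range of at least 1, or 3 without AMB8. The 2 of largest range are kinases of the families that mTORC2 phosphorylates. PRKCA, a protein kinase C, had 247 CPM in AMB10, followed by 182 in AMB8 and 151 in AMB4, and 68.3 to 104 in the remaining libraries. SGK2 was at 3.70 CPM in AMB10 and 0.71 in AMB5, the libraries of highest and lowest RICTOR. However, it was nearly as low in AMB9 (0.86 CPM) and AMB3 (0.89 CPM), and no counting intervals are given for these low levels. PRKCA was lowest in AMB6, and the relation of these kinases to RICTOR was not tested. LARP1, which represses the translation of ribosomal protein mRNAs, lay between 197 and 253 CPM.

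**Figure D4:**
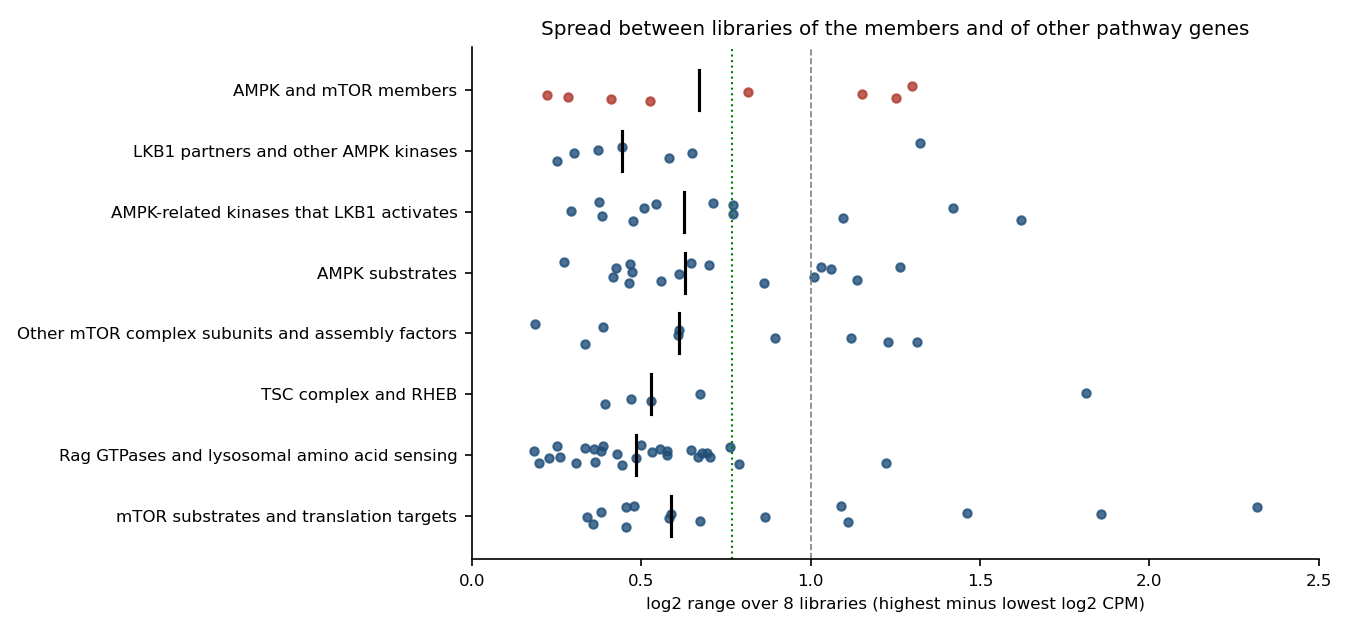
Log2 range over the 8 libraries (x axis) of the 8 members and of the tested genes of 7 pathway lists (rows); each point is 1 gene, the black bar is the median of a row, the dotted line the median of all 16874 tested genes (0.77) and the dashed line a range of 1. PRKAA2, PRKAG2 and RICTOR lie beyond 1, and 1 of 27 lysosomal amino acid sensing genes does.

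Reads of overlapping genes could not be told apart by gene, since the counting is not described. RICTOR overlaps OSMR on the opposite strand, which was at no more than 8.68 CPM. PRKAG2 overlaps uncharacterized genes at no more than 3.25 CPM, the highest of them on its own strand. PRKAG1 overlaps an uncharacterized gene on the opposite strand at no more than 2.51 CPM. Genes that overlap MTOR and PRKAA1 were at no more than 0.336 CPM, and PRKAA2, PRKAB1 and RPTOR overlap none in the table.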

How the data were processed

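RNA was extracted with a column kit and strand-specific libraries were made from 25 ng of total RNA, per the labels' protocols. The authors deposited estimated counts per RefSeq gene and normalized log2 values, per the file headers. Of the deposited estimated counts above 0, 75.7% were not whole (tolerance 0.001). The submitters' processing notes name DESeq with no version. Neither aligner nor counter nor build is given in the sources used here. All 37053 identifiers and symbols matched the RefSeq table of Panubis1.0, and the coordinates of the 8 members were equal in both.

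Estimated counts were rounded. Genes were kept by filterByExpr in edgeR 4.0.16 (R 4.3.3), without groups and at a minimum count of 10, and log2 CPM used a prior count of 2. Relations were tested by exact two-sided permutation over all 40320 pairings (scipy 1.17.1 and Python 3.11.15), with Benjamini-Hochberg adjustment over the pairs or over the marker relations. None was given for values in separate clusters (a gap wider than 0.5 of the range, with 2 or more libraries to either side). The computation of ranges was run on simulated counts with known fold changes and counting error only. It checks the computation and not the variation between these libraries. Besides the members, the genes named were, of each list, the 2 with the largest median CPM and the 2 with the widest range. For the 3 members of largest range, the 5 most similar genes were named, with a median count of at least 50, a range of at least 0.5 and a symbol other than LOC. Alternatives were DESeq2 1.42.0 size factors, library totals, a prior count of 0.5, no filter, unrounded counts, the deposited log2 values and leaving out each library. The members and lists were chosen with earlier results of these data known, and the count of genes by the order of AMB3, AMB8 and AMB10 after their values were seen. Some genes that this rule names are not reported here.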

Additional observations from a re-analysis of the deposited data

Results flagged for a closer look

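Among 13 sets of 8 values examined (8 member levels and 5 ratios), 2 had a library that stood apart. For the ratio of RICTOR to MTOR, the gap between AMB5 and its nearest library was 0.554 of the whole range on the log2 scale, and for RICTOR to RPTOR it was 0.573, both above the critical value of 0.526 for 8 values. Both ratios rest on the same RICTOR counts in AMB5. Chance flags about 1 in 20 such sets.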

How the results depend on the processing

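The number of members with a log2 range of at least 1 was 3 under both other scalings, the lower prior count, no filter, unrounded counts and the deposited log2 values, and 2 to 3 when a library was left out. Without AMB8 it was PRKAA2 (0.70) that dropped below 1 and without AMB5 (0.62) or AMB10 (0.94) it was RICTOR. The number of pathway genes was 15 to 18 with a library left out, against 19 with all. With no filter, 54.2% of genes had such a range, against 36.1%. The other scalings moved the median of all genes in a library by at most 0.07 on the log2 scale. Relations of members with markers at an adjusted p under 0.05 numbered 0 to 1 with a library left out: without AMB5 (adjusted p = 0.0111) and without AMB10 (adjusted p = 0.0381), by exact permutation over 7 libraries, PRKAA2 and the meningeal genes passed by r. By rho the adjusted p was 0.0222 without AMB5 and 0.178 without AMB10. No member pair passed in any alternative tested, which leaves out PRKAG2 and PRKAG1 without AMB7, where values fell into separate clusters. No paired analysis was possible because the libraries are in no groups.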
